A study of Homo sapiens with 7 samples.

Results

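The genes described here are the cyclin E pair, their kinase and the factors that control its activity and the turnover of the complex: CCNE1, CCNE2, CDK2, CDC25A, FBXW7, SKP2 and CKS1B. They were chosen by symbol for their place in the pathway, and all 7 were found, each under 1 Ensembl gene, among the 63677 genes of the count table. All 7 also passed the filter on low counts, which left 17502 genes for testing. The table counts RNA-seq reads from 7 libraries of T47D, a line of human luminal breast cancer cells that carry the estrogen receptor. Resistant clone 2 and resistant clone 4 gave 2 libraries each, and parental, palbociclib-sensitive cells gave 3. Per the labels, the clones were selected with palbociclib, which inhibits the kinases CDK4 and CDK6, over 6 months at doses from 1 uM to 5 uM, and the drug was absent from the medium during experiments unless noted. Cells of all 3 groups were grown in the same medium with serum, insulin, EGF and hydrocortisone. Each resistant group is a single clone, so a difference between a clone and the parental cells cannot be told apart from a property of that clone.

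Cyclin E binds and activates CDK2 late in G1, and the complex phosphorylates RB and its relatives, helps to activate replication origins and starts S phase. This is the step that follows phosphorylation of RB by cyclin D with CDK4 or CDK6, the kinases that palbociclib blocks. CDC25A is the phosphatase that removes the inhibitory phosphates from CDK2. FBXW7 is the substrate receptor of an SCF ubiquitin ligase that recognises phosphorylated cyclin E and sends it to the proteasome. SKP2 is the receptor of another SCF ligase, and with its small cofactor, encoded by CKS1B, it recognises the CDK inhibitor p27. Much of this control acts on protein and phosphorylation, and the data here are levels of RNA.

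The promoters of CCNE1, CDC25A, SKP2 and CKS1B, the members with a single RefSeq promoter window, are shown because they differ in the short elements they hold. In GRCh38 (GENCODE 29), CCNE1 lies on chromosome 19 from 29811898 to 29824308, CDK2 on chromosome 12 from 55966769 to 55972784, and CDC25A on chromosome 3 from 48157146 to 48188402. FBXW7 lies on chromosome 4 from 152320544 to 152536063, SKP2 on chromosome 5 from 36151989 to 36184319, and CKS1B on chromosome 1 from 154974653 to 154979249. The count table was made on hg19, so these positions serve for identity only. RefSeq promoter windows, 250 bases before to 50 after a gene start, were found for 5 of the 7 members, with 4 start sites for FBXW7. Those of CCNE1 (chr19:29811741-29812040, plus strand), CDC25A (chr3:48188368-48188667, minus strand), SKP2 (chr5:36151861-36152160, plus strand) and CKS1B (chr1:154974431-154974730, plus strand) in GRCh38.p14 read, with matches to the searched motifs in capitals:
CCNE1: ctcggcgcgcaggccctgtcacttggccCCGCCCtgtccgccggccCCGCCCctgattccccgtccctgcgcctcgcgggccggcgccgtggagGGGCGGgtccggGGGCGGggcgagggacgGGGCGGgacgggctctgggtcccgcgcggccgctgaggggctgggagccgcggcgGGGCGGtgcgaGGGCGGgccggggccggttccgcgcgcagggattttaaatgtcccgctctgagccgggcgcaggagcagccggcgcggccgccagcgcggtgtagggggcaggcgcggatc
CDC25A: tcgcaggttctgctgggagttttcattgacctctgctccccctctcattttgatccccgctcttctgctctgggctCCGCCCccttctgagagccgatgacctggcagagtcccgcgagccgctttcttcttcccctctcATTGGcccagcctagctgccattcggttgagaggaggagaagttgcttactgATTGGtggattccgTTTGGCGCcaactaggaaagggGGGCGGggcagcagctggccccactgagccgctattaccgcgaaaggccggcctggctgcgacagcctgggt
SKP2: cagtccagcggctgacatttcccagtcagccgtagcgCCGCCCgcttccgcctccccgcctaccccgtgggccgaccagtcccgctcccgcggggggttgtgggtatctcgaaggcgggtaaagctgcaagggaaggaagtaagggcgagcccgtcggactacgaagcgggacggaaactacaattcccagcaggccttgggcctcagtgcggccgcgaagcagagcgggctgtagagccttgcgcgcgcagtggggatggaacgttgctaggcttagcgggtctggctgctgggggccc
CKS1B: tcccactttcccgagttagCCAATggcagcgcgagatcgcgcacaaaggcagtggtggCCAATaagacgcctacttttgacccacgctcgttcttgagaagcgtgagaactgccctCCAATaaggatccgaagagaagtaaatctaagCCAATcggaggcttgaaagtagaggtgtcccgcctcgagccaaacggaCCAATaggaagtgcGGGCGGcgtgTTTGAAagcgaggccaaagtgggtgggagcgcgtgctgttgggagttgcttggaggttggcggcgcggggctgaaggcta

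The motifs, searched on both strands, were the E2F site in the forms TTTCCCGC, TTTGGCGC, TTTCGCGC and TTTGCCGC, the GC box GGGCGG, the CHR element TTTGAA or TTCGAA, the CCAAT box CCAAT and the STAT site TTCCNGGAA. The CCNE1 window held 7 GC boxes, a number reached by 1.5% of 35116 RefSeq promoter windows, and none of the other motifs. Its 81.0% of G and C compares with 61.0% in CDC25A, 67.3% in SKP2 and 57.0% in CKS1B. The CDC25A window held 1 E2F match, TTTGGCGC, 44 bases before the start, together with 2 CCAAT boxes and 2 GC boxes. An E2F match of these forms was present in 3.31% of all windows. The CKS1B window held 5 CCAAT boxes, which 0.359% of windows reach, with a GC box and a CHR element, TTTGAA, 30 bases before the start. The SKP2 window held 1 GC box. GC boxes occur in 45.0% of all windows, CCAAT boxes in 34.6%, CHR elements in 16.4% and the STAT form in 1.15%. None of the 4 windows held the STAT form. These are matches of letters within a window and do not show binding. A missing match does not exclude a site of another form.

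Libraries held 10997625 to 17524621 counts, of which mitochondrial genes took 11.3% to 11.5% in clone 2, 12.6% to 15.6% in clone 4 and 10.1% to 10.4% in parental cells. All 8 luminal markers of T47D, among them GATA3, KRT19 and EPCAM, had counts in every library. Of these, 5 fell in clone 2 and 2 in clone 4, where 20.8% and 22.3% of all genes were called lower. The clone 4 count lies near that share. KRT8 fell in both clones and ESR1 in clone 2, while EPCAM rose by 0.3 in clone 4 (edgeR adjusted p = 0.023). The summed leukocyte markers came to 8.99 to 10.9 CPM by library total in clone 2, 7.62 to 8.96 in clone 4 and 3.59 to 4.86 in parental cells, with PTPRC at 0 or 1 count and TYROBP at 0. Of 4 testable leukocyte markers, ITGAM and LYZ had counts high enough for the filter only in the clones. A call as higher in the clones was thus favoured in advance for them, and no count is set beside the share of all genes. ITGAM, an integrin subunit of myeloid cells, had 47 and 59 counts in clone 2, 28 and 26 in clone 4, and 0, 1 and 1 in parental cells, and was called higher in both clones (edgeR adjusted p = 3.99e-07 and 5.34e-06). CD68, a lysosomal protein of macrophages, rose by 1.25 in clone 4 (edgeR adjusted p = 0.00131) and was at 0.18 in clone 2 and not called. Fibroblast markers summed to 231 to 253, 70.8 to 99.3 and 39.2 to 41.4 CPM in clone 2, clone 4 and parental cells, with PDGFRB at 0 or 1 count and COL1A2 at 0 to 5. Of the 4 testable fibroblast markers, COL3A1, LUM and DCN had counts high enough for the filter only in clone 2. Their calls as higher there were thus largely set in advance and are not counted beside the share of all genes. COL3A1 had 1209 and 1499 counts in clone 2, 0 in both clone 4 libraries, and 0, 1 and 0 in parental cells. COL1A1 rose by 1.62 in clone 2 and by 1.1 in clone 4. LUM and DCN rose by 3.06 and 2.21 in clone 2 and were not called in clone 4. The part of these markers in the results below was not tested. The labels name the libraries of a group biological replicates without saying whether they were separate cultures, so the p-values measure the spread between these libraries, which may be technical.

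CCNE1 was higher in both resistant clones and was the member with the largest change in each. Its level was 22.0 and 27.0 CPM in the clone 2 libraries, 14.2 and 18.5 CPM in the clone 4 libraries, and 6.44, 6.41 and 8.28 CPM in the parental libraries, where CPM are counts scaled to a common library size with TMM factors. No library of one group overlapped another group, and every clone 2 library lay above every clone 4 library. In clone 2 the mean was 24.5 ± 3.5 CPM (SD, n = 2), against 7.04 ± 1.1 CPM in parental cells (SD, n = 3), 3.5-fold higher with a 95% interval of 2.73 to 4.48. On the log2 scale the change came to 1.81 (SE 0.167), with an edgeR quasi-likelihood adjusted p of 2.01e-06, and its size exceeded that of 94.5% of the genes tested. In clone 4 the mean was 16.4 ± 3.0 CPM (SD, n = 2), 2.32-fold above parental cells with an interval of 1.79 to 3.0. On the log2 scale that is 1.21 (SE 0.173), with an edgeR adjusted p of 8.72e-05. In these bulk libraries more cells with CCNE1 RNA and more CCNE1 RNA per cell cannot be told apart. Both calls held in all fits without 1 library, at log2 fold changes of 1.64 to 1.93 in clone 2 and 1.02 to 1.39 in clone 4. The comparisons of the clones with parental cells share the parental libraries. Between the clones, CCNE1 was 1.51-fold higher in clone 2 than in clone 4, or 0.59 in log2 (SE 0.175), at edgeR adjusted p = 0.0172. This last call was lost without clone 4 replicate 1 (0.41, edgeR adjusted p = 0.13) and without clone 2 replicate 2 (0.43, edgeR adjusted p = 0.211).

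**Figure D1:**
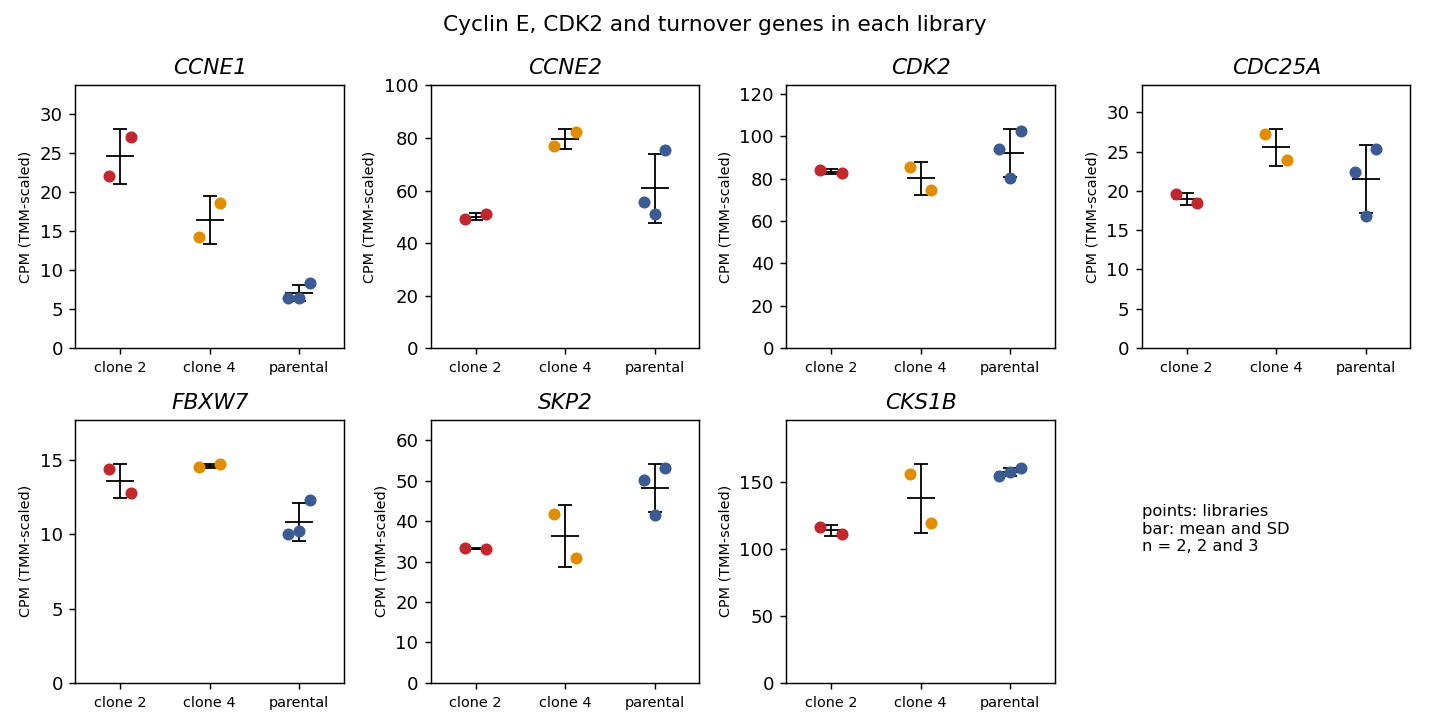
TMM-scaled CPM of the 7 genes in each library of clone 2, clone 4 and parental cells, with the group mean and SD. CCNE1 lies between 22.0 and 27.0 CPM in clone 2 and between 14.2 and 18.5 in clone 4, above all parental libraries, while the CDK2 libraries of the 3 groups overlap.

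CCNE2, which encodes the other E-type cyclin and lies on chromosome 8 from 94879770 to 94896678 in GRCh38, differed most between the clones. It stood at 49.1 and 51.0 CPM in clone 2, 77.1 and 82.4 CPM in clone 4, and 55.6, 51.2 and 75.6 CPM in parental cells. The clone 4 libraries were the highest and the clone 2 libraries the lowest, with parental replicate 3 close below clone 4. In clone 2 against parental cells the log2 fold change was -0.28 (95% interval -0.59 to 0.03, edgeR adjusted p = 0.135) and was not called. It was called lower without parental replicate 2, at -0.39 (edgeR adjusted p = 0.0462). In clone 4 against parental cells it was 0.39 (SE 0.14, edgeR adjusted p = 0.0355). That call survived the omission of parental replicate 3 and was lost when any other single library was left out, at adjusted p of 0.0587 to 0.171. The difference between the clones was firmer: CCNE2 was lower in clone 2 than in clone 4 with a log2 difference of -0.67 (SE 0.156), at edgeR adjusted p = 0.00454, and this held without any 1 library, at adjusted p of up to 0.0401. On the opposite strand, INTS8, a subunit of the Integrator complex, overlaps 1629 of the 4397 exonic bases of CCNE2. The strand setting of the counting is not given in the sources used here, so reads from the shared stretch cannot be told apart. INTS8 itself was lower in clone 2, by log2 fold changes of -0.56 against parental cells (edgeR adjusted p = 0.00217) and -0.61 against clone 4 (edgeR adjusted p = 0.00278), and was at 0.05 in clone 4 against parental cells and not called. The part of INTS8 reads in the CCNE2 counts was not tested.

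The balance of the E cyclins therefore differed between the groups. CCNE1 made up 31.0% and 34.6% of the summed CCNE1 and CCNE2 counts in the clone 2 libraries, 15.6% and 18.4% in the clone 4 libraries, and 10.4%, 11.1% and 9.9% in the parental libraries. The exact 95% binomial intervals, which cover counting error only, ran from 27.8% to 37.3% over the clone 2 libraries, from 13.7% to 20.7% over clone 4 and from 8.2% to 13.3% over parental cells, so those of different groups did not meet. Group means were 32.8% ± 2.6 in clone 2 (SD, n = 2), 17.0% ± 2.0 in clone 4 (SD, n = 2) and 10.5% ± 0.63 in parental cells (SD, n = 3). These shares are of counts, and CCNE2 has the longer exons, at 4.4 kb against 2.55 kb for CCNE1. Per kb of exon, CCNE1 and CCNE2 stood at 9.62 ± 1.4 and 11.4 ± 0.31 CPM per kb in clone 2, at 6.42 ± 1.2 and 18.1 ± 0.86 in clone 4, and at 2.76 ± 0.42 and 13.8 ± 3.0 in parental cells. The CCNE2 values per kb were the higher ones in every group, but they include any reads of INTS8 from the shared exons, whose number was not tested.

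**Figure D2:**
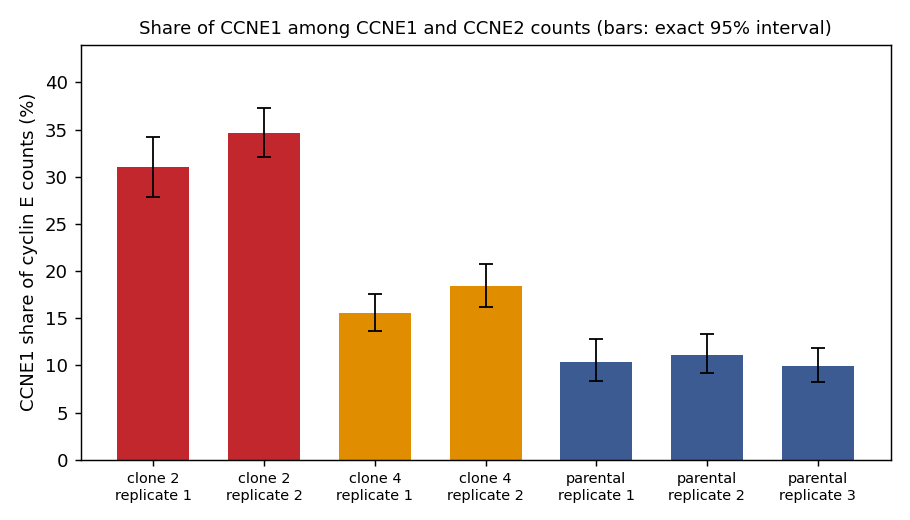
CCNE1 counts as a percent of CCNE1 and CCNE2 counts in each library, with exact 95% binomial intervals. The bars lie at 31.0% and 34.6% in clone 2, 15.6% and 18.4% in clone 4, and 9.9% to 11.1% in parental cells.

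CDK2, the kinase itself, was not called in any comparison. Its levels were 84.2 and 82.4 CPM in clone 2, 85.5 and 74.6 CPM in clone 4, and 93.7, 80.1 and 102.6 CPM in parental cells, and the libraries of the 3 groups overlapped. The log2 fold changes were -0.14 in clone 2 (95% interval -0.39 to 0.11, edgeR adjusted p = 0.341) and -0.2 in clone 4 (-0.45 to 0.05, edgeR adjusted p = 0.181) against parental cells, and 0.06 between the clones (-0.22 to 0.33, edgeR adjusted p = 0.763). CDK2 exons share 565 of 3894 bases with an antisense gene, AC025162.1, and 89 with PMEL, whose reads cannot be told apart without strand. The intervals leave room for a fall to 0.761 of the parental level in clone 2 and to 0.731 in clone 4. CDC25A, the phosphatase, had 19.5 and 18.4 CPM in clone 2, 27.2 and 23.9 CPM in clone 4, and 22.4, 16.8 and 25.3 CPM in parental cells. It was at -0.18 in clone 2 (95% interval -0.52 to 0.16) and 0.26 in clone 4 (-0.08 to 0.59), and neither was called, at edgeR adjusted p of 0.393 and 0.195. Without parental replicate 3 it was called higher in clone 4 (0.39, edgeR adjusted p = 0.0464). The clone 2 libraries lay below those of clone 4, a log2 difference of -0.43 (SE 0.172) that missed the threshold at edgeR adjusted p = 0.063 and passed it without parental replicate 2 or parental replicate 3, at adjusted p of 0.0259 and 0.0329.

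FBXW7, the receptor that recognises cyclin E, had values in the clones above every parental library, and per kb of exon it was the lowest of the 7 genes in every group. It had 14.4 and 12.8 CPM in clone 2, 14.5 and 14.7 CPM in clone 4, and 9.98, 10.2 and 12.3 CPM in parental cells. In clone 4 it rose by 0.43 in log2 (SE 0.146), at edgeR adjusted p = 0.0282. That call was lost under DESeq2 and when any 1 library except parental replicate 3 was left out, at adjusted p of up to 0.0972. In clone 2 it was at 0.32 (95% interval 0.01 to 0.64, edgeR adjusted p = 0.0899) and not called, but was called without parental replicate 3 (0.42, edgeR adjusted p = 0.0256). Between the clones it was at -0.1 (-0.44 to 0.24) and not called.

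SKP2 and CKS1B, the receptor for p27 and its cofactor, were lower in clone 2. SKP2 had 33.4 and 33.1 CPM in clone 2, 41.7 and 30.8 CPM in clone 4, and 50.1, 41.5 and 53.1 CPM in parental cells, so that clone 2 lay below all parental libraries and clone 4 replicate 1 lay just above parental replicate 2. It changed by -0.54 in clone 2 (SE 0.142, edgeR adjusted p = 0.00796) and by -0.41 in clone 4 (SE 0.141, edgeR adjusted p = 0.0316). The clone 2 call was lost without clone 2 replicate 1 (edgeR adjusted p = 0.0502) and without clone 2 replicate 2 (edgeR adjusted p = 0.0634). The clone 4 call was lost without parental replicate 1 (edgeR adjusted p = 0.0881), parental replicate 3 (edgeR adjusted p = 0.0751) or clone 4 replicate 2 (-0.21, edgeR adjusted p = 0.305), and the value was -0.65 without clone 4 replicate 1. CKS1B, the most abundant of the 7 genes, had 116.7 and 111.0 CPM in clone 2, 156.2 and 119.7 CPM in clone 4, and 154.6, 157.3 and 160.2 CPM in parental cells. It fell in clone 2 by 0.47 on the log2 scale (SE 0.114, edgeR adjusted p = 0.00488), a call lost without clone 2 replicate 2 (-0.44, edgeR adjusted p = 0.0686). The clone 4 libraries stood far apart, and the log2 fold change of -0.19 (95% interval -0.43 to 0.05, edgeR adjusted p = 0.192) was not called, while without clone 4 replicate 1 it was -0.4 and called (edgeR adjusted p = 0.0118). Between the clones neither passed the threshold, with SKP2 at -0.13 (edgeR adjusted p = 0.543) and CKS1B at -0.28 (edgeR adjusted p = 0.0948). The call for CKS1B between the clones was made without clone 4 replicate 2 (-0.47, edgeR adjusted p = 0.00888). Of 4 CKS1B pseudogenes in the table, CKS1BP3 had 2 counts over all libraries and the others 0.

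**Figure D3:**
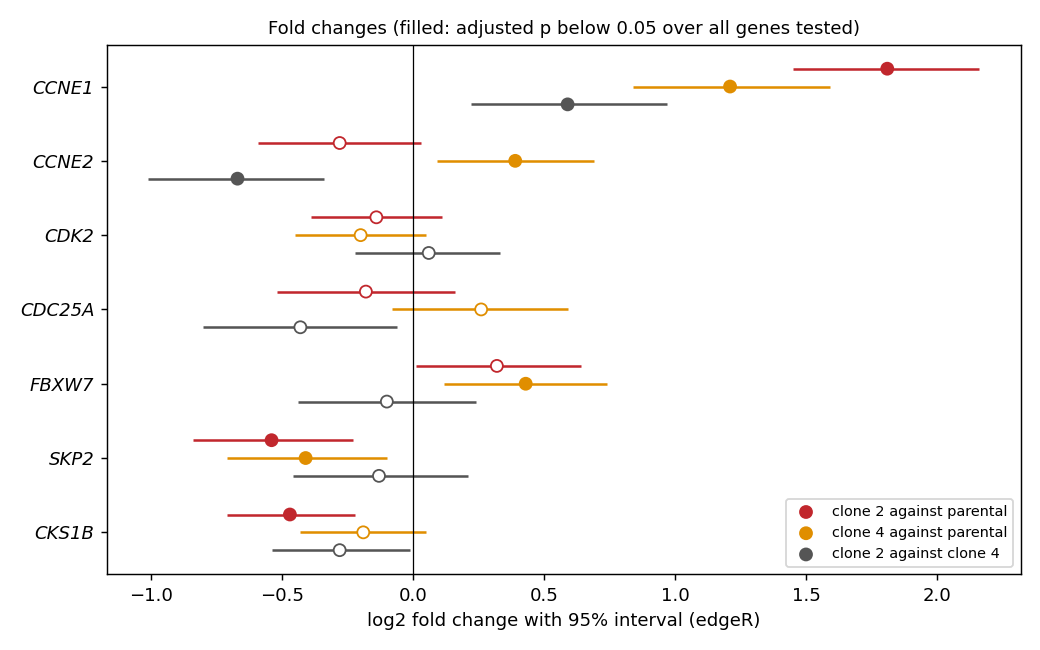
Log2 fold changes of the 7 genes with 95% intervals in clone 2 and clone 4 against parental cells and in clone 2 against clone 4, filled where the edgeR adjusted p over all genes tested was below 0.05. CCNE1 stands at 1.81 and 1.21 in the clones, and all values of the other genes lie between -0.67 and 0.43.

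Counted over the 7 genes, 1 rose and 2 fell in clone 2, beside 42.5% of all genes called (21.7% higher and 20.8% lower). In clone 4, 3 rose and 1 fell, beside 44.4% of all genes called (22.1% higher and 22.3% lower). Clone 2 differed from clone 4 in 2 genes, 1 higher and 1 lower, beside 36.5% of all genes. These counts lie near the shares called among all genes and do not mark out the group as a whole. The median log2 fold change was -0.18 in clone 2, 0.26 in clone 4 and -0.13 between the clones, against 0.016, 0.005 and 0.03 over all genes tested. Libraries of the groups compared did not overlap for 5 of 7 genes in clone 2 (65.8% of all genes), 3 in clone 4 (61.2% of all genes) and 5 between the clones (72.2% of all genes).

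The place of CCNE1 among the 7 genes, ordered by CPM per kb of exon, differed between the groups. CKS1B led in every group, CDK2 and CCNE2 followed it, and FBXW7 was last. CCNE1 had rank 4 in clone 2 at 9.62 CPM per kb, where it overlapped SKP2 at 8.66 ± 0.049. In clone 4 it had rank 5 at 6.42 CPM per kb and overlapped CDC25A at 6.2 ± 0.57. In parental cells it had rank 6 at 2.76 CPM per kb, below CDC25A at 5.22 ± 1.0 with no overlap of libraries, and SKP2 at 12.6 ± 1.6 overlapped CCNE2 at 13.8 ± 3.0.

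Among the genes that flank CCNE1 on chromosome 19, URI1 alone was called higher in clone 2 and none was in clone 4. Of the 10 nearest tested genes in GENCODE 29 order, 5 on each side, 1 rose and none fell in clone 2 (median 0.2 in log2), beside 42.5% of all genes called, and none rose and 3 fell in clone 4 (median -0.2), beside 44.4%. URI1, a prefoldin-like protein gene that starts 112 kb beyond CCNE1, was at 0.46 in clone 2 (SE 0.12, edgeR adjusted p = 0.00906) and -0.4 in clone 4 (SE 0.13, edgeR adjusted p = 0.0242). C19orf12, which starts 113 kb before it, was at 0.25 in clone 2 (edgeR adjusted p = 0.196) and -0.45 in clone 4 (edgeR adjusted p = 0.0362). UQCRFS1, a subunit of respiratory complex III, was at 0.08 in clone 2 (edgeR adjusted p = 0.593) and -0.4 in clone 4 (edgeR adjusted p = 0.0128). PLEKHF1 and POP4 were at 0.12 and 0.15 in clone 2 and -0.34 and -0.12 in clone 4, and were not called. A pair of genes with wide errors, CTC-448F2.6 and SLC25A1P5, stood at 1.48 ± 0.59 and 1.19 ± 0.53 (SE) in clone 2 and 0.68 ± 0.68 and 0.9 ± 0.57 in clone 4, and were not called. Between the clones, URI1, C19orf12 and UQCRFS1 were higher in clone 2 than in clone 4, by 0.86, 0.7 and 0.48, and none of the 10 was lower, beside 19.6% of all genes called higher and 17.0% called lower.

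**Figure D4:**
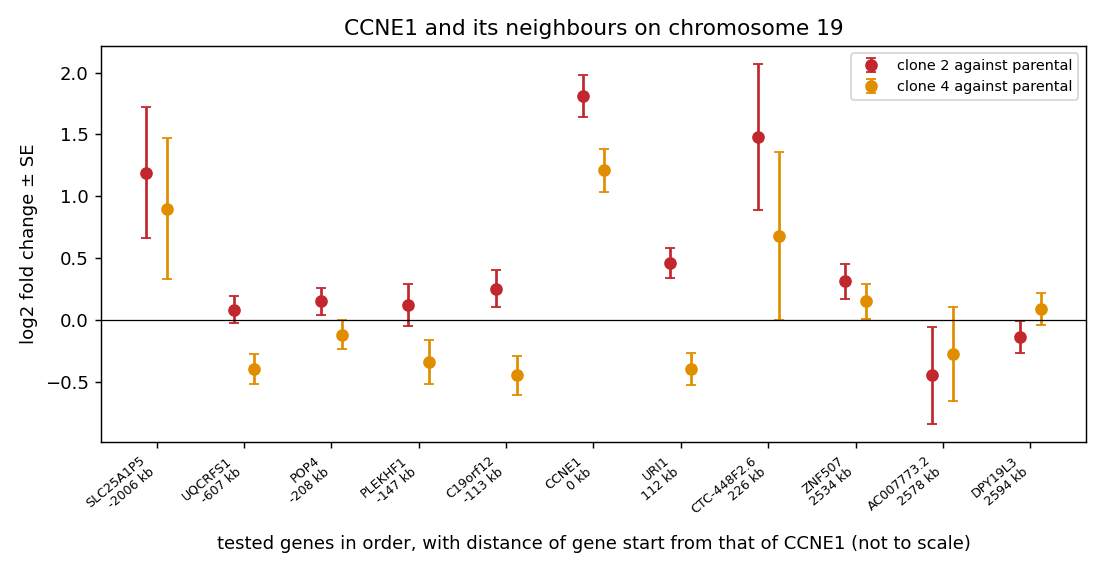
Log2 fold change ± SE of CCNE1 and the 5 tested genes on each side of it in clone 2 and clone 4 against parental cells, with the distance of each gene start from that of CCNE1. CCNE1 stands at 1.81 and 1.21, while URI1 beside it is at 0.46 in clone 2 and -0.4 in clone 4.

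Inhibitors of CDK2, which bind it or phosphorylate it, included CDKN1A, which rose in both clones. Of 5 measured genes 3 rose and 1 fell in clone 2, beside 21.7% of all genes called higher and 20.8% lower, and 3 rose and 1 fell in clone 4, beside 22.1% higher and 22.3% lower, with median log2 fold changes of 0.66 and 0.31. CDKN1A, which encodes p21, rose by 2.02 in clone 2 (SE 0.1, edgeR adjusted p = 4.44e-09) and by 0.86 in clone 4 (SE 0.103, edgeR adjusted p = 1.91e-05), and was 1.16 higher in clone 2 than in clone 4. CDKN1B, which encodes p27, the target of SKP2, rose by 0.41 in clone 2 (edgeR adjusted p = 0.0292) and was at -0.11 in clone 4 and not called. The clone 2 call was lost without parental replicate 2, clone 2 replicate 1 or clone 2 replicate 2, at adjusted p of 0.105 to 0.191. CDKN1C, which encodes p57, rose by 1.77 in clone 4 (SE 0.376, edgeR adjusted p = 0.00189) and was at 0.81 in clone 2 (edgeR adjusted p = 0.144). CDKN1C counts were low, at 11 and 15 in clone 2, 23 and 24 in clone 4, and 4, 8 and 10 in parental cells. WEE1, a kinase that places inhibitory phosphates on CDKs, rose by 0.66 in clone 2 (edgeR adjusted p = 0.000485) and by 0.31 in clone 4 (edgeR adjusted p = 0.0457). The clone 4 call for WEE1 was lost without any 1 library other than parental replicate 3, at adjusted p of 0.0802 to 0.159. PKMYT1, which acts mainly on CDK1, fell by 0.66 in clone 2 and by 0.4 in clone 4, where the call was lost without clone 4 replicate 1 (edgeR adjusted p = 0.0647).

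A list of 8 tested genes held partners and activators of CDK2 and related genes, among them CDK1, a separate kinase. None rose in either clone, 3 fell in clone 2 and 2 in clone 4, where 20.8% and 22.3% of all genes were called lower. The clone 4 count lies near that share. The list had medians of -0.22 in clone 2 and -0.03 in clone 4. CCNA2, cyclin A, which takes over CDK2 from cyclin E in S phase, was at -0.08 in clone 2 and -0.05 in clone 4 and not called. CKS2, the close relative of CKS1B, fell by 0.93 in clone 2 (SE 0.103, edgeR adjusted p = 1.04e-05) and by 0.52 in clone 4 (SE 0.101, edgeR adjusted p = 0.000976). CDK1 and CDC25C fell in clone 2 by 0.71 and 0.56 and were at -0.2 and 0.05 in clone 4, not called. With CKS2 they made up the 3 falls in clone 2, so that count says little about activators of CDK2. The CDC25C call was lost without clone 2 replicate 1 (edgeR adjusted p = 0.0506). CDC25B, another CDC25 phosphatase, was at 0.07 in clone 2 and not called, and fell by 0.45 in clone 4 (edgeR adjusted p = 0.00971). CDK7, CCNH and MNAT1, the CDK-activating kinase, were not called in either clone.

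**Figure D5:**
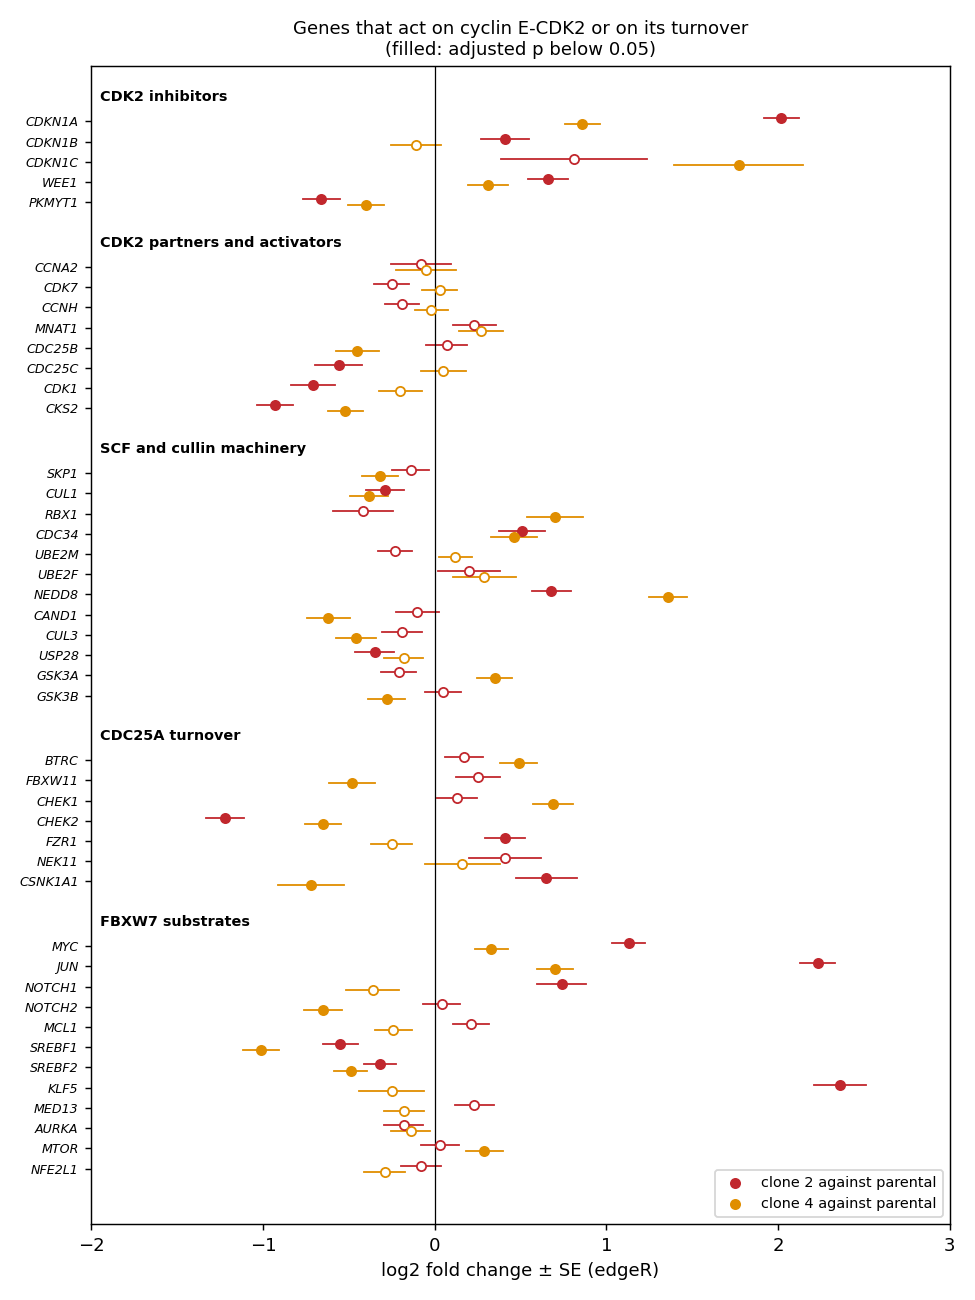
Log2 fold change ± SE in clone 2 and clone 4 against parental cells, filled where the edgeR adjusted p was below 0.05. Shown are genes that inhibit, activate or degrade cyclin E-CDK2, related genes such as CDK1, and substrates of FBXW7. CDKN1A stands at 2.02 and 0.86 and NEDD8 at 0.68 and 1.36, to the right of most other genes of their groups.

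The shared machinery of the SCF ligases went both ways. Of 12 genes 2 rose and 2 fell in clone 2, where 42.5% of all genes were called, and 4 rose and 5 fell in clone 4, where 44.4% were, with medians of -0.17 and -0.03. NEDD8, the ubiquitin-like protein that activates cullins, rose by 0.68 in clone 2 (SE 0.114, edgeR adjusted p = 0.000323) and by 1.36 in clone 4 (SE 0.111, edgeR adjusted p = 6.53e-07). CDC34, the ubiquitin-conjugating enzyme that works with SCF, rose by 0.51 in clone 2 and 0.46 in clone 4. The CDC34 calls were lost without clone 2 replicate 2 in clone 2 and without parental replicate 1, parental replicate 2 or clone 4 replicate 2 in clone 4, at adjusted p of up to 0.0793. CUL1, the cullin scaffold, fell by 0.29 in clone 2, a call held only without clone 4 replicate 1 or clone 4 replicate 2, and by 0.38 in clone 4, a call lost without clone 4 replicate 2 (edgeR adjusted p = 0.122). SKP1, the adaptor that holds the F-box protein, was at -0.14 in clone 2, not called, and fell by 0.32 in clone 4, a call lost without parental replicate 1 or clone 4 replicate 2. RBX1, the RING subunit, was at -0.42 in clone 2 (edgeR adjusted p = 0.0658), rose by 0.7 in clone 4 (edgeR adjusted p = 0.00351; 0.0906 without clone 4 replicate 2) and was lower in clone 2 than in clone 4, at -1.13. CAND1, which exchanges F-box proteins on CUL1, fell by 0.62 in clone 4 and was at -0.1 in clone 2. USP28, a deubiquitinase that opposes FBXW7, fell by 0.35 in clone 2 (edgeR adjusted p = 0.025), a call lost without parental replicate 1, parental replicate 2 or either clone 2 library, and was at -0.18 in clone 4, not called. GSK3A, a kinase that marks substrates for FBXW7, rose by 0.35 in clone 4 (edgeR adjusted p = 0.012; 0.102 without clone 4 replicate 2) and was not called in clone 2.

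Genes that control the turnover of CDC25A also split. Of 7 genes 2 rose and 1 fell in clone 2, at the 42.5% called among all genes, and 2 rose and 3 fell in clone 4, beside 44.4% of all genes, with medians of 0.25 and -0.25. CHEK2, a checkpoint kinase that marks CDC25A for degradation, fell by 1.22 in clone 2 (SE 0.109, edgeR adjusted p = 1.41e-06) and by 0.65 in clone 4 (SE 0.105, edgeR adjusted p = 0.000252). CHEK1, the other such kinase, was at 0.13 in clone 2 and not called, and rose by 0.69 in clone 4 (edgeR adjusted p = 0.000307). BTRC and FBXW11, the 2 beta-TrCP receptors of the ligase, were not called in clone 2, and in clone 4 BTRC rose by 0.49 and FBXW11 fell by 0.48, the FBXW11 call being lost without clone 4 replicate 2 (edgeR adjusted p = 0.109). CSNK1A1, casein kinase 1 alpha, rose by 0.65 in clone 2 and fell by 0.72 in clone 4, a difference between the clones of 1.37 (SE 0.204, edgeR adjusted p = 0.000253). Its call against parental cells was lost without either clone 2 library in clone 2 and without clone 4 replicate 2 in clone 4, at adjusted p of up to 0.121, while the difference between the clones held.

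Transcripts of other proteins that FBXW7 degrades were higher in clone 2 than in clone 4 in 8 of 12 cases and lower in none, beside 19.6% of all genes called higher, with a median of 0.46 against 0.03 over all genes. JUN rose by 2.23 in clone 2 (SE 0.101, edgeR adjusted p = 1.68e-09) and by 0.7 in clone 4 (SE 0.105, edgeR adjusted p = 0.00013). MYC rose by 1.13 in clone 2 (edgeR adjusted p = 8.42e-07) and by 0.33 in clone 4 (edgeR adjusted p = 0.013), the clone 4 call being lost without parental replicate 1 or clone 4 replicate 1. KLF5, a zinc-finger factor of epithelial cells, rose by 2.36 in clone 2 and was at -0.25 in clone 4 and not called. SREBF1, which drives lipid synthesis genes, fell by 0.55 in clone 2 and by 1.01 in clone 4. Against parental cells the list had 4 members higher and 2 lower in clone 2, beside 42.5% of all genes called, and 3 higher and 3 lower in clone 4, beside 44.4%. Of 8 substrates of SKP2, 2 rose and 2 fell in clone 2, and 3 rose and 3 fell in clone 4, beside the same shares of all genes, among them TOB1, an antiproliferative protein, which fell by 0.67 in clone 2 and 0.68 in clone 4.

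Among 12 genes for substrates of cyclin E-CDK2, none rose and 4 fell in clone 2, where 21.7% of all genes were called higher and 20.8% lower. In clone 4, 1 of the 12 rose and 2 fell, where 22.1% of all genes were called higher and 22.3% lower. RB1 had 332 and 493 counts in clone 2, 2 and 3 counts in clone 4, and 702, 837 and 792 counts in parental cells, and was called lower in both clones, at -0.94 in clone 2 (edgeR adjusted p = 2.91e-05) and in clone 4 at edgeR adjusted p = 3.65e-11. RBL2, a relative of RB1, fell by 0.4 in clone 2, a call lost without either clone 2 library, and by 1.21 in clone 4. NPM1, a centrosome substrate, fell by 0.55 in clone 2 and was at -0.08 in clone 4. CDC6, which loads the MCM helicase, fell by 0.58 in clone 2 (edgeR adjusted p = 0.000857) and was at -0.03 in clone 4. Of 14 E2F target genes of S phase, 1 rose and 7 fell in clone 2, with a median of -0.28, and 3 rose and 1 fell in clone 4, with a median of 0.03, the higher count in clone 4 lying at the share of all genes called higher. E2F3 rose by 0.93 in clone 2 and 1.18 in clone 4, and E2F1 was at 0.2 in clone 2, not called, and rose by 0.76 in clone 4 (edgeR adjusted p = 6.89e-05). PCNA, the sliding clamp, fell by 0.49 in clone 2 and rose by 0.36 in clone 4, a call lost without parental replicate 1 or clone 4 replicate 1. Between the clones 6 of the 14 were lower in clone 2 and none was higher, beside 17.0% of all genes called lower and 19.6% higher. The 6 proliferation markers summed to 1160 and 1170 CPM by library total in clone 2, 1320 and 1150 in clone 4, and 1250, 1140 and 1590 in parental cells. These sums overlapped between the groups, but single markers moved. In clone 2 none of the 6 rose and 3 fell, beside 21.7% of all genes called higher and 20.8% lower. They were PCNA, TOP2A (-0.53) and CCNB1 (-0.4), the last 2 calls being lost without either clone 2 library. In clone 4, 1 rose and 1 fell, beside 22.1% higher and 22.3% lower. PLK1 was at -1.25 in clone 4 (edgeR adjusted p = 1.12e-05) and at 0.2 in clone 2, not called. MKI67 was at 0.01 in clone 2 and -0.33 in clone 4 and not called in either.

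By the shape of its profile over the 7 libraries, CCNE1 was closest to CHD5, ALS2CL, DOK7, COL6A1 and SAMD4A among 12480 genes. Likeness was the root mean square difference of mean-centred log2 CPM, which ran from 0.151 for CHD5 to 0.173 for SAMD4A, beside a spread of 0.788 in CCNE1 itself. CCNE2 lay closest to IGF2BP2, at 0.05, and CDC25A to NCAPH, a condensin subunit, at 0.053. CDK2 lay closest to CKAP5 at 0.021, SKP2 to NCEH1 at 0.03, CKS1B to NUP37 at 0.047 and FBXW7 to RP11-360L9.8 at 0.054, with CCNK next at 0.058. With 3 groups in 7 libraries, many genes can share such a profile.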

How the data were processed

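The authors deposited raw read counts per Ensembl gene for 7 T47D libraries, whole numbers taken unchanged. Per the submitters' processing notes, FastQC, CASAVA, STAR and hg19 were used. The sources used here give no versions, counting program, annotation or strand setting. The members and gene lists were chosen with earlier results of these data known.

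Testing used edgeR 4.0.16 (R 4.3.3) with filterByExpr (minimum count 10), TMM scaling and a robust quasi-likelihood fit of 3 group means over all 7 libraries. A gene counted as called where its p, adjusted by Benjamini-Hochberg over 17502 genes, was under 0.05. Standard errors and 95% intervals came from the quasi-F statistic. The biological coefficient of variation was 0.0997. The fitting procedure was also run on simulated data, in which few genes changed and all genes varied alike. Many genes were called in the real data, so that run does not give their error rate. Levels per kb used the union of exons in GENCODE 29, which also gave gene order and overlaps. Ensembl genes with no symbol, 6724 in all, took 1.02% to 1.41% of counts and stayed in the fit. Besides the 7 genes, the text names a set fixed by symbol, up to 4 called members of a list by size of change, the neighbours of CCNE1 and the genes most alike in profile. Further genes of the lists are named to fill out a group and were chosen after their values were seen. The alternatives left out each library in turn, fitted only the groups compared, added a replicate block, used RLE scaling or DESeq2 1.42.0, or changed the filter to 1 count or to 1 CPM with 50 counts.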

Additional observations from a re-analysis of the deposited data

Results flagged for a closer look

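The E cyclins changed differently in the 2 clones by the test between them. The change of CCNE1 against parental cells was larger in clone 2 than in clone 4 by 0.59 on the log2 scale (edgeR adjusted p = 0.0172), with both clone 2 libraries above both clone 4 libraries. For CCNE2 the difference was -0.67 (edgeR adjusted p = 0.00454), with both clone 2 libraries below both clone 4 libraries. Among the 7 genes these were the only ones called between the clones, beside 36.5% of all genes tested. The CCNE1 difference ran from 0.41 to 0.78 over 7 fits that each left out a library, and its call was lost in 2. INTS8, whose exons overlap those of CCNE2, was at -0.61 between the clones, and its part in the CCNE2 counts was not tested.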

How the results depend on the processing

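Of 280 values of the 7 genes recomputed under an alternative, 240 stayed on their side of the threshold, 24 lost a call, 16 gained one and none changed the sign of a called value. The CCNE1 calls against parental cells held throughout. With no filter beyond 1 count, FBXW7 in clone 4 lost its call (0.39, adjusted p = 0.0663), while CCNE2 in clone 2 (-0.31) and CDC25A between the clones (-0.43) gained one. With only the groups compared, CCNE2 (0.4) and SKP2 (-0.4) in clone 4 lost their calls, leaving 2 genes called there, and CDC25A between the clones gained one (-0.46). FBXW7 in clone 4 lost its call under DESeq2 (0.43, adjusted p = 0.0605). The causes were not tested.

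Groups share replicate numbers in the descriptions, though the clone 2 library names carry 4 and 6 in place of 1 and 2, so its pairing with the other groups is uncertain. By the descriptions, same-numbered libraries did not all deviate together. Correlations were -0.041 and -0.076 between clone 2 and parental cells, and 0.36 and 0.202 between clone 4 and parental cells. Between the clones the correlation was -0.19 for both pairs. In a clone with 2 libraries the deviations from the mean mirror each other, so these values are not separate checks of pairing. Parental replicate 3 shared its number with no other library, so the replicate block fitted it exactly and left it without weight in the fold changes. With the block, CDC25A in clone 4 (0.39) and FBXW7 in clone 2 (0.42) were called, at the same values as without parental replicate 3. CDC25A (-0.42) and CKS1B (-0.27) between the clones were called too, which made 4 of the 7 genes there. The genes called in all were 8194 in clone 2, 8551 in clone 4 and 7831 between the clones, against 7443, 7771 and 6396. With clone 2 numbers crossed, chosen after seeing the data, 8538 genes and 4 of the 7 were called between the clones, CDC25A at -0.44 and CKS1B at -0.27.

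Without 1 library, the genes called numbered 4291 to 7988 in clone 2, 5355 to 8060 in clone 4 and 3289 to 7348 between the clones. Omitting clone 2 replicate 1 gave 4631 in clone 2 and 3621 between the clones, and omitting clone 2 replicate 2 gave the lowest of both. Among the 7 genes 1 to 4 were called in clone 2 (1 without clone 2 replicate 2), 1 to 4 in clone 4 (1 without parental replicate 1 or clone 4 replicate 2, 2 without parental replicate 2 or either clone 2 library) and 1 to 3 between the clones (1 without clone 4 replicate 1 or clone 2 replicate 2). Log2 fold changes in clone 2 were -0.39 to -0.1 for CCNE2, 0.23 to 0.42 for FBXW7, -0.64 to -0.46 for SKP2 and -0.52 to -0.44 for CKS1B. In clone 4 they were 0.28 to 0.57 for CCNE2, 0.1 to 0.39 for CDC25A, 0.38 to 0.52 for FBXW7, -0.65 to -0.21 for SKP2 and -0.4 to -0.01 for CKS1B. Between the clones they were 0.41 to 0.78 for CCNE1, -0.53 to -0.34 for CDC25A and -0.47 to -0.08 for CKS1B. A clone left with 1 library was assumed to vary like the other groups.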

Other observations

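The 10 tested genes nearest to each of the other 6 members were also counted, where 42.5% of all genes were called in clone 2 and 44.4% in clone 4. Around CCNE2, 2 genes rose and 4 fell in clone 2, and none rose and 3 fell in clone 4. Around CKS1B, 1 rose and 3 fell in clone 2, and 2 rose and 1 fell in clone 4. Around SKP2, 3 rose and none fell in clone 2, where SKP2 itself fell, and 2 rose and 2 fell in clone 4. Near CDK2, none rose and 2 fell in clone 2, and 1 rose and 4 fell in clone 4. Near CDC25A, none rose and 1 fell in clone 2, and 1 rose and 3 fell in clone 4. Near FBXW7, none rose and 1 fell in clone 2, and 1 rose and 1 fell in clone 4. Median log2 fold changes of these neighbourhoods lay between -0.25 and 0.1 in clone 2 and between -0.24 and 0.11 in clone 4.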
